A study of Sus scrofa and Bos taurus with 31 samples.

Results

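The potassium channel genes of the pig were taken as the protein-coding genes of the Sscrofa11.1 RefSeq annotation on chromosomes 1 to 18 whose symbol starts with KCN, and 90 of 18725 genes met this rule. They comprised 38 voltage-gated pore subunits, 6 calcium or sodium activated channels, 15 inward rectifiers, 15 two-pore-domain channels and 16 accessory subunits. These families were assigned by symbol and not by what opens each channel. None of the 6 was a KCNT gene, the sodium activated channels of that family. Open chromatin at these genes was read from ATAC-seq, in which a transposase cuts DNA that is free of nucleosomes, on frozen nuclei of 8 tissues from 2 pigs, named P348 and P350. The pigs were sexually mature castrated male littermates, and each was sampled untreated in every tissue, so each tissue had 2 libraries. The brain tissues were cerebellum, cerebral cortex and hypothalamus (6 libraries), and they were compared with skeletal muscle (2 libraries) and with the other tissues, namely adipose, liver, lung and spleen (8 libraries).

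Potassium channels let potassium ions leave or enter the cell, and so set the resting potential and end the action potential. Voltage-gated pore subunits open on depolarization, inward rectifiers and two-pore-domain channels carry current near rest, calcium activated channels couple the membrane to calcium, and accessory subunits alter the gating or traffic of the pores. Neurons use a wide set of these genes, and muscle fibres rely on inward rectifiers and ATP-sensitive channels to keep the membrane quiet at rest.

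Each library had its own list of broad peaks, and the lists held 99960 peaks (skeletal muscle of P350) to 217308 peaks (cerebellum of P348). Peak lists carry no read counts, so the depth behind a value is unknown and no counting interval is given. Peak bases in a gene and 10 kb on either side were therefore expressed per Mb of all peak bases of the library, and all values below are in this unit, called the peak density. A value of 0 means that no peak passed the authors' limit in the window. Of 5 skeletal muscle fibre markers, the summed density was 461 to 584 in skeletal muscle and 22.6 to 129 in the other 14 libraries. The summed density of 5 neuron markers was 616 to 657 in cerebral cortex and 326 to 395 in hypothalamus. It was 265 to 369 in liver, 346 to 350 in lung and 273 to 347 in spleen, and these ranges overlapped that of hypothalamus. In cerebellum it was 164 to 257, below its range in spleen. The neuron markers therefore set cerebral cortex apart, but neither hypothalamus nor cerebellum. The leukocyte list was highest in spleen (332 to 404) and the hepatocyte list in liver (86.1 to 200), but the lung epithelium list reached 73.7 to 99.6 in lung and 93.8 to 112 in skeletal muscle, and the adipocyte list 62.3 to 113 in adipose and 96.9 to 106 in liver. In whole tissue, fewer cells with an open region and a weaker signal per cell cannot be told apart.

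The density is a share of the list, and its level for the median gene differed between the groups. Over the 18340 genes with peak bases in at least 2 libraries, the median log2 difference was -0.38 for brain minus other tissues, 0.15 for skeletal muscle minus other tissues, -0.59 for brain minus skeletal muscle and -0.68 for cerebellum minus the other brain tissues. All 90 KCN genes were among those tested. Counts of calls are therefore given both as measured and after each library was centred on its median gene. Calls rest on limma's moderated test across all 18340 genes on log2(density + 5) with a Benjamini-Hochberg adjusted p under 0.05. The fit had a mean for each tissue, so the p-values rest only on the spread between the 2 littermates within a tissue. The spread among the brain tissues, or among the other tissues, did not enter them. Where counts with a mean for each group are given below, they include that spread.

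Every KCN gene had an open start site in at least 1 library. A peak within 2 kb of a transcription start site (TSS) was found in all 16 libraries for 38 KCN genes (42.2%, against 58% of all genes), in 1 to 15 libraries for 52 genes (57.8%, against 36.3%) and in none for 0 genes (against 5.7%). The number of KCN genes with such a peak ranged from 63 in the spleen of P350 to 81 in both libraries of cerebral cortex and in the lung of P350. It was 74.3 ± 6.68 (SD, n = 6) in brain, 69.5 ± 0.707 (n = 2) in skeletal muscle and 71.5 ± 5.83 (n = 8) in the other tissues, so the differences between groups were within the spread of the libraries. Both cerebral cortex libraries reached 90% of the KCN genes, while 79.9% and 80.2% of all genes had a TSS peak there. Both spleen libraries lay below the genome, with 73.3% and 70% of the KCN genes against 77.3% and 76.9% of all genes. So did both libraries of adipose (78.9% and 77.8% against 80.8% and 78.4%) and of liver (78.9% and 80% against 79.5% and 81.5%).

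**Figure D1:**
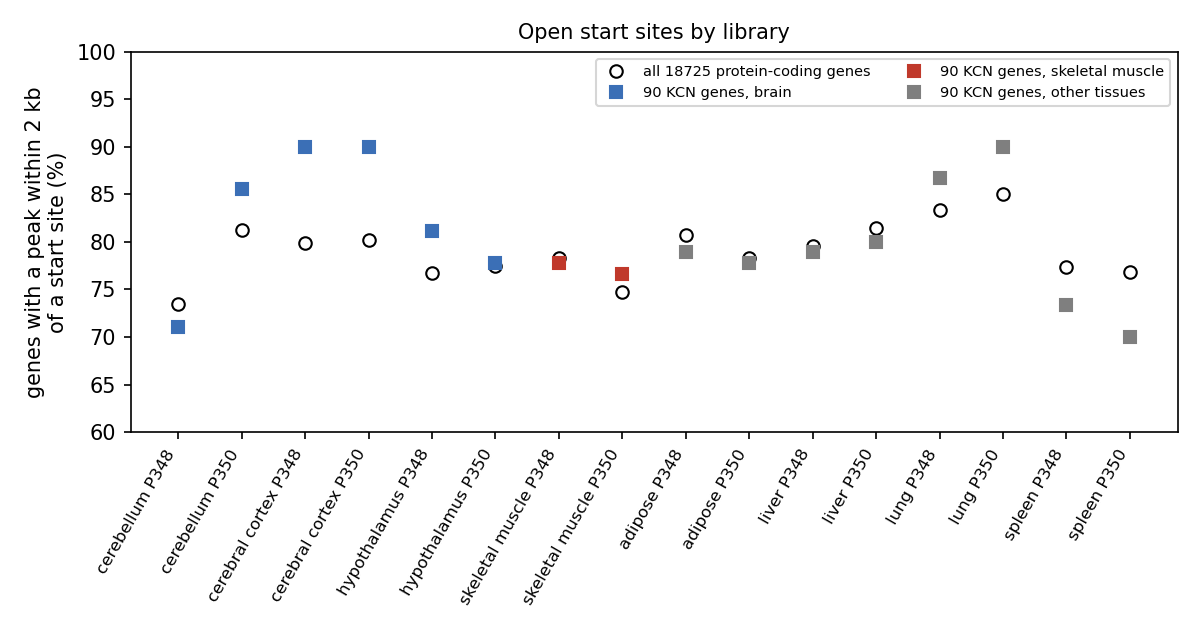
Percent of genes with a peak within 2 kb of a TSS in each of the 16 libraries (y axis from 60 to 100%), for the 90 KCN genes (squares, coloured by group) and for all 18725 protein-coding genes (open circles). The squares of cerebral cortex sit at 90% above circles near 80%, and those of spleen, adipose and liver sit below their circles.

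By family, with no test of the differences, 19 of 38 voltage-gated pore subunits had a TSS peak in all 16 libraries, as did 8 of 16 accessory subunits and 3 of 6 calcium or sodium activated channels. The inward rectifiers had 3 of 15 and the two-pore-domain channels 5 of 15. In cerebral cortex the inward rectifiers were open at 15 and 14 of 15 start sites, whereas the spleen of P350 had 7 and that of P348 had 12. KCN genes open in all libraries had promoters with a median CpG observed to expected ratio of 0.737, and those open in 1 to 15 libraries had 0.424. The same ratio was 0.782 and 0.369 for all genes in these classes.

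Among the KCN genes, 1 had a TSS open in both libraries of a single tissue and in no other library (1.11%, against 1.19% of all genes). This was KCNA10, a Shaker-related voltage-gated channel (chromosome 4, 109646024 to 109647699), whose TSS was open in adipose only. Its density did not follow, with 14.3 and 16.2 in adipose and 8.19 to 18.6 in brain. KCNE2, a small accessory subunit of the heart and stomach, had a TSS peak in a single library, the skeletal muscle of P350. KCNJ9, a G protein gated inward rectifier of neurons, was the KCN gene closest to a brain-limited start site, with a TSS peak in all 6 brain libraries and in 1 of the other 10 (adipose of P348), and 0 KCN genes had a TSS open in all 6 brain libraries and nowhere else (against 0.0214% of all genes). It was picked out as the only KCN gene open in all 6 brain libraries and in at most 5 of the other 10 (1.11%, against 0.646% of all genes). KCNG4, a silent subunit that modifies other voltage-gated pores, had a TSS peak in 3 libraries, both of cerebral cortex and the hypothalamus of P350. KCNQ1, the channel of heart and epithelia, had a TSS peak in 3 libraries of 3 different tissues, although its window held 49.3 to 324 peak bases per Mb.

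A short motif set was searched in the 300-base promoter of each gene (250 bases before to 50 bases after the gene start), on both strands. The letters TTCAGCACC, from the left arm of the RE1 element that the neuronal repressor REST binds, occurred in the promoters of 4 KCN genes (4.44%, against 0.299% of all promoters). These were the ether-a-go-go family members KCNH5 and KCNH6 and the two-pore-domain channels KCNK3 and KCNK13. An exact match to the letters searched for the right arm of the element occurred in 0 KCN promoters (against 0.198%). Inexact matches, such as those after the capitals in the sequences of KCNH6 and KCNK3 below, were not counted. The sequences around the 4 matches are shown because, of the motifs searched, this one had the largest share in KCN promoters relative to all promoters. Each is written 5′ to 3′ on the strand of the gene from RefSeq's Sscrofa11.1 genome, with the motif or its reverse complement GGTGCTGAA in capitals, and none overlaps an annotated exon.
KCNH5, chr1:194965604-194965664, plus strand: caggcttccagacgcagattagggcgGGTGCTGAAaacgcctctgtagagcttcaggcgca
KCNH6, chr12:15374777-15374837, minus strand: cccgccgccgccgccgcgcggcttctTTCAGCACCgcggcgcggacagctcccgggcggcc
KCNK3, chr3:112359330-112359390, minus strand: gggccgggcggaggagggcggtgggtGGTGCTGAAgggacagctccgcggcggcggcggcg
KCNK13, chr7:111866221-111866269, plus strand: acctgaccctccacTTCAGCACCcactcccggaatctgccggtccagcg

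The start sites of these 4 genes were open widely, in 16, 15, 14 and 16 libraries for KCNH5, KCNH6, KCNK3 and KCNK13. Of the 4, KCNH5 was called higher in brain than in the other tissues and KCNK13 lower (-0.46 ± 0.15, adjusted p = 0.030), and KCNH6 and KCNK3 were not called. The remaining motifs gave shares closer to the genome. The motif of MEF2, a factor of muscle and neurons, occurred in 4 KCN promoters (4.44%, against 2.61%), those of KCNE2, KCNJ9, KCNJ13 and KCNK10. The GC box GGGCGG occurred in 51 (56.7%, against 50.8%) and TATAAA in 3 (3.33%, against 10.8%). A match is a description of the letters and not evidence of a bound factor.

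In brain against the other tissues, the largest called differences were those of KCNH7 and KCNMB2, both higher in brain. Density was called higher in brain for 16 of the 90 KCN genes (17.8%, against 6.04% of all genes tested) and lower for 20 (22.2%, against 38.2%). After centring on the median gene, 29 were higher (14.2% of all genes) and 2 were lower (7.71% of all genes). The median log2 difference of the KCN genes was -0.17 against -0.38 for all genes, and 65 of 90 lay above the median of all genes. With 1 mean for each of the 3 groups in place of 1 for each tissue, 10 were higher (2.28% of all genes) and 5 lower (13.6%).

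KCNH7, an ERG-type channel of neurons (chromosome 15, 69053456 to 69555144), had the largest difference. Its density was 464 and 281 in cerebellum, 95.0 and 137 in cerebral cortex, and 116 and 134 in hypothalamus. In the other tissues it ranged from 23.5 to 58.8 with a median of 38.4, and in skeletal muscle it was 43.9 and 31.5. All 6 brain libraries lay above the other 10, and the log2 difference from the other tissues was 2.04 ± 0.18 (SE, adjusted p = 2.7e-05). KCNMB2, an inactivating beta subunit of the large-conductance calcium activated channel (chromosome 13, 116745204 to 116999300), was 238 and 193 in cerebellum and 112 to 133 in the other brain tissues. It was 6.84 to 50.5 in the other tissues, without overlap, with a difference of 1.96 ± 0.27 (adjusted p = 0.00035).

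KCNH5, an ether-a-go-go channel (chromosome 1, 194965696 to 195264046), had a density of 81.1 to 197 in brain (median 122) and of 21.1 to 86.3 in the other tissues (median 40.4). The groups touched only through the spleen of P350 at 86.3, and the log2 difference was 1.60 ± 0.27 (adjusted p = 0.0011). KCNIP4, which binds the A-type channels of dendrites, had 337 to 654 in brain (median 449) against 77.4 to 385 (median 201), a difference of 1.30 ± 0.24 (adjusted p = 0.0016). The liver of P350, at 385, was above the lowest cerebellum library. KCNH8, an ELK-type channel, had 108 to 274 in brain (median 224) against 55.1 to 125 (median 94.3), a difference of 1.16 ± 0.27 (adjusted p = 0.0050).

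KCNC2, a channel of fast-spiking neurons, had 32.7 to 127 in brain (median 58.0) against 19.5 to 33.3 (median 24.4), a log2 difference of 1.05 ± 0.21 (adjusted p = 0.0024). KCNK2, a stretch-sensitive background channel, had 99.0 to 189 in brain (median 131) against 41.5 to 97.8 (median 66.0), so that all brain libraries were higher, with a difference of 1.01 ± 0.23 (adjusted p = 0.0050). KCNQ5, a subunit of the neuronal M current, had 419 to 530 in brain (median 449) against 181 to 350 (median 283), also without overlap, with a difference of 0.80 ± 0.13 (adjusted p = 0.00092). KCNQ5 was as high in skeletal muscle, at 544 and 422. In all, 6 KCN genes had every brain library above all 8 libraries of the other tissues (6.67%, against 0.398% of all genes tested), namely KCNH7, KCNMB2, KCNK2, KCNQ5, KCNAB1 and KCNB2. The reverse, every library of the other tissues above every brain library, held for 0 KCN genes (against 2.03%). Centring raised each of these differences, and KCNH8 and KCNK2 lost their call only with a pseudocount of 1 (adjusted p = 0.052 and 0.054).

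**Figure D2:**
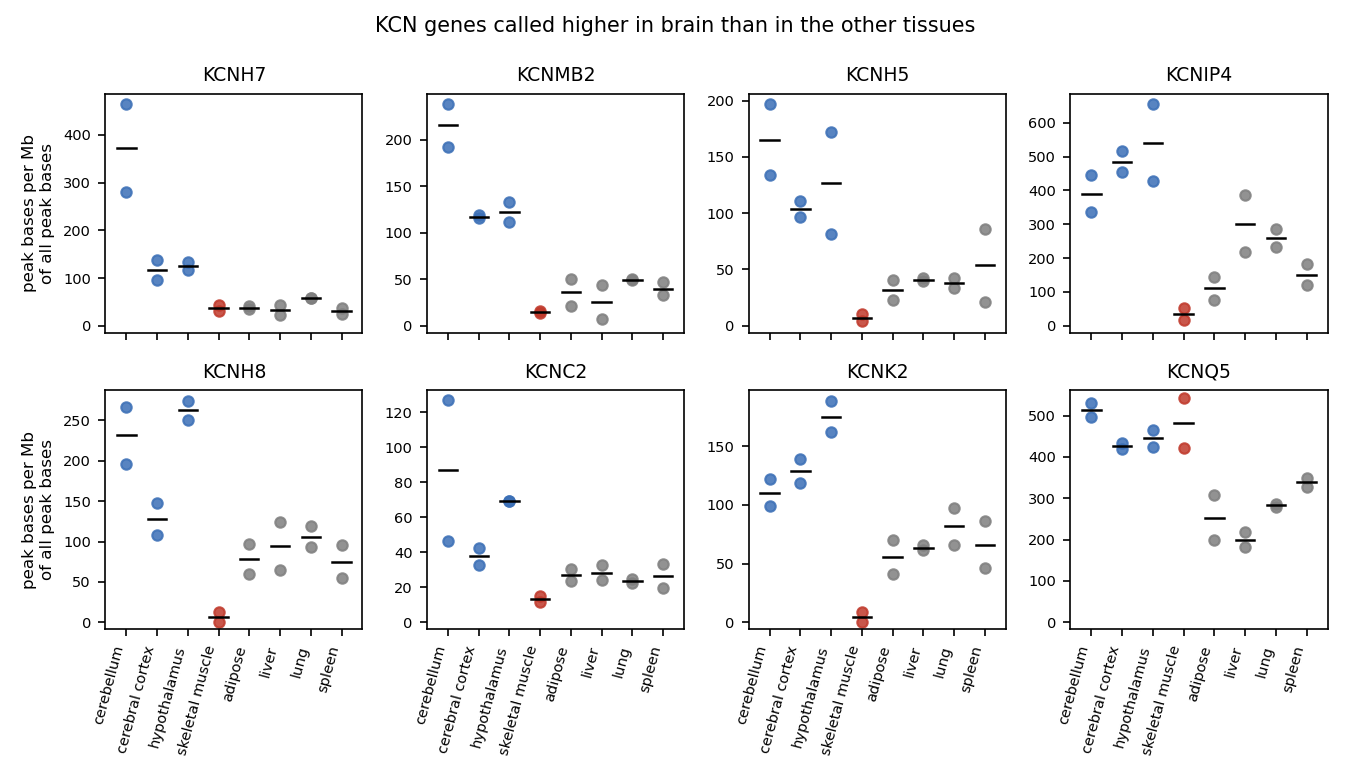
Peak density (peak bases in the gene plus 10 kb per Mb of all peak bases, linear axes from 0) of the 8 KCN genes with the largest called excess in brain, by tissue. Each point is a library and each bar the mean of the 2 pigs (blue, brain; red, skeletal muscle; grey, other tissues). KCNH7 and KCNMB2 peak in cerebellum, KCNH8 and KCNK2 in hypothalamus, and KCNQ5 is as high in skeletal muscle as in brain.

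The calls in the other direction were lost without cerebellum, and whether this was particular to KCN genes was not tested. The lowest were KCNS1, a silent subunit, with 0 to 21.3 in brain against 12.5 to 44.9 (log2 difference -1.28 ± 0.32, adjusted p = 0.0075), and KCNAB2, a cytoplasmic beta subunit, with 11.7 to 101 against 70.0 to 119 (-0.95 ± 0.18, adjusted p = 0.0019). These were also the only 2 lower calls that remained after centring. KCNN4, the calcium activated channel of blood cells, had 2.26 to 22.4 in brain and 12.2 to 34.6 in the other tissues (-0.92 ± 0.24, adjusted p = 0.0095). KCNG4, KCNK6, KCNK16 and KCNK5 were also called, with differences between -0.91 and -0.78. Without cerebellum, limma called 0 KCN genes lower in brain (9 at an unadjusted p under 0.05) and 14 higher. The share of all genes called in this fit is not given here. The median log2 difference of all genes was -0.16 in this fit, against -0.38 with cerebellum, so the level of genes in general moved as well.

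Within the families, 8 of 38 voltage-gated pore subunits were higher in brain and 5 lower, and after centring 15 were higher and 1 lower. The accessory subunits had 3 higher and 5 lower (5 and 1 centred), and the two-pore-domain channels 1 and 5 (2 and 0). The inward rectifiers had 3 and 3 (4 and 0), with KCNJ3, a G protein gated rectifier, at 0.77 ± 0.17 (adjusted p = 0.0036), and KCNJ10, the rectifier of glia, at 0.45 ± 0.14 (adjusted p = 0.018). The KCNJ10 call was lost with 50 kb flanks, distal bases only, peaks in place of bases and 3 groups (adjusted p up to 0.69), and the KCNJ3 call with 3 groups (adjusted p = 0.080). Both were low in cerebellum and high in the rest of the brain, with 26.8 and 19.5 against 65.0 to 72.7 for KCNJ3 and 31.1 and 41.2 against 89.7 to 96.7 for KCNJ10. The windows of KCNJ10 and KCNJ9 overlap, so part of their peak bases is shared.

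Several genes from the list of known tissue roles were not called in brain against the other tissues as measured. KCNQ3, a subunit of the M current, had 99.5 to 337 in brain (median 233) and 151 to 335 in the other tissues (median 228). KCNA2, an axonal channel, had 30.02 to 87.7 (median 55.8) and 32.8 to 113 (median 48.3), where the 2 highest libraries were those of spleen at 113 and 87.5. KCNA1 had 9.35 to 34.1 (median 22.7) and 14.2 to 58.5 (median 32.4), and KCND2, an A-type pore, had 30.7 to 154 (median 93.4) and 20.1 to 142 (median 73.2). KCNH2, the ERG channel of the heart, had 16.9 to 84.3 (median 58.1) and 27.6 to 98.7 (median 60.5), and KCNK9, an acid-sensitive background channel, had 39.6 to 118 (median 79.7) and 41.7 to 136 (median 81.3). KCND3 had 73.7 to 223 (median 154) and 55.6 to 193 (median 129), and was the only one of these 7 called after centring (0.67, adjusted p = 0.039). The ranges of all 7 genes overlapped, and none was called before centring.

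In skeletal muscle against the other tissues, KCN genes were called in both directions. This comparison uses the same 8 libraries of the other tissues as the brain comparison, so the 2 are not independent. Density was higher in skeletal muscle for 20 KCN genes (22.2%, against 18.6% of all genes) and lower for 23 (25.6%, against 13.8%). After centring, 17 were higher (13.8% of all genes) and 27 lower (18.2%), and with 1 mean for each of the 3 groups 14 were higher (15.6%, against 7.21%) and 17 lower (18.9%, against 8.41%). Without overlap of libraries, 23 were above all 8 libraries of the other tissues (25.6%, against 20.2%) and 20 were below all of them (22.2%, against 11.1%). The shares of higher and of lower KCN genes were above those of all genes under each of these 4 rules. The rules reuse the same libraries and are not independent, and the higher share as measured was close to that of all genes (22.2% against 18.6%).

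The lower genes included channels that the brain held at high density. KCNB2, a slow delayed rectifier (chromosome 4, 62877838 to 63306314), had 7.99 and 9.35 in skeletal muscle, 116 to 231 in the other tissues (median 181) and 238 to 347 in brain (median 289). The log2 difference between skeletal muscle and the other tissues was -3.74 ± 0.18 (adjusted p = 2.5e-08). KCNH8 had 12.9 and 0 in skeletal muscle against 55.1 to 125 (-3.25 ± 0.39, adjusted p = 5.4e-05), and KCNK2 had 9.18 and 0 against 41.5 to 97.8 (-3.05 ± 0.34, adjusted p = 2.9e-05). For both genes the 0 was in the library of P350, whose list was the shortest. KCNH1, an ether-a-go-go channel, had 95.7 and 8.25 against 159 to 330 (-2.72 ± 0.50, adjusted p = 0.0012), with its 2 muscle libraries far apart.

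KCNIP4 had 52.6 and 16.8 in skeletal muscle against 77.4 to 385 in the other tissues (log2 difference -2.43 ± 0.35, adjusted p = 0.00021). KCNJ6, a G protein gated rectifier of neurons, had 29.0 and 22.7 against 108 to 197 (-2.37 ± 0.22, adjusted p = 6.5e-06), and its TSS had no peak in skeletal muscle and a peak in 13 of the other 14 libraries. KCNK10, a relative of KCNK2, had 18.5 and 13.4 against 57.9 to 170 (-2.29 ± 0.28, adjusted p = 5.5e-05). KCNIP1 had 96.1 and 48.4 against 198 to 398 (-1.97 ± 0.27, adjusted p = 0.00016). In each of these 8 genes both muscle libraries lay below all 14 others, brain included.

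The higher genes included inward rectifiers, voltage-gated pore subunits and two-pore-domain channels. KCNC1, a fast delayed rectifier (chromosome 2, 41362208 to 41407935), had 149 and 116 in skeletal muscle against 9.93 to 68.6 (median 33.1) in the other tissues (log2 difference 1.94 ± 0.39, adjusted p = 0.0021). KCNK7, a two-pore-domain gene without a known current of its own, had 79.2 and 80.0 against 10.9 to 28.8 (1.68 ± 0.27, adjusted p = 0.00047). KCNJ3 had 93.2 and 93.6 against 11.1 to 51.8 (1.65 ± 0.24, adjusted p = 0.00027).

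KCNJ12, a strong inward rectifier (chromosome 12, 61424459 to 61511373), had 225 and 260 in skeletal muscle against 40.3 to 98.6 (median 81.4) in the other tissues (1.65 ± 0.48, adjusted p = 0.018). KCNJ2, the other strong rectifier of muscle, had 64.5 and 69.5 against 14.5 to 39.0 (1.25 ± 0.24, adjusted p = 0.0019). KCNJ11, the pore of the ATP-sensitive channel, had 50.2 and 54.9 against 10.4 to 35.6 (1.26 ± 0.31, adjusted p = 0.0070). Its call was lost at a q-value limit of 0.01, with distal bases only and with peaks in place of bases. The lowest difference of KCNJ11 under an alternative was 0.15. Its window holds 1 other protein-coding gene, as do those of KCNJ2 and KCNC1. The windows of KCNJ12 and KCNK7 hold 2 each, and that of KCNA7 holds 3. KCNJ16, which assembles with other rectifiers, had 109 and 77.3 against 9.59 to 68.2 (1.46 ± 0.39, adjusted p = 0.012), and its window overlaps that of KCNJ2. KCNC4 had 55.9 and 81.5 against 6.39 to 37.0 (1.57 ± 0.42, adjusted p = 0.012), and KCNA7, a Shaker-related channel of striated muscle, had 84.5 and 108 against 20.04 to 51.9 (1.40 ± 0.35, adjusted p = 0.0083). In all of these higher genes, both muscle libraries lay above the 8 libraries of the other tissues. The KCNA7 call was lost at a q-value limit of 0.01, with lists of equal length, peaks in place of bases and 3 groups. The KCNC4 call was lost at that q-value limit and with lists of equal length. KCNJ16 lost its call with distal bases only, a pseudocount of 1 and 3 groups, and KCNJ12 with bases not scaled.

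With the skeletal muscle library of P350 left out, fewer KCN genes were called in either direction. The share of all genes called in that fit is not given here. KCNC4, KCNJ12, KCNJ16, KCNA7, KCNJ11 and KCNK3 were among the genes that lost their call. KCNJ12 and KCNJ16 also lost it without the library of P348. The lone library was then assumed to vary like the rest. KCNJ8, the pore of vascular ATP-sensitive channels, had 10.1 and 13.3 in skeletal muscle against 7.58 to 20.2 in the other tissues, and was not called. KCNK3, an acid-sensitive background channel, had 115 and 127 against 28.4 to 87.7 (1.24 ± 0.30, adjusted p = 0.0072). KCNIP2, a binding partner of A-type channels known from the heart, had 70.4 and 95.1 against 35.4 to 63.3 and was not called. KCNA3, the channel of T cells, was lower in skeletal muscle, at 11.7 and 13.4 against 10.3 to 44.1 (-0.72 ± 0.24, adjusted p = 0.038), but this call was lost under 12 alternatives (adjusted p up to 0.22), among them leaving out either muscle library. Its 2 highest libraries were those of spleen at 39.3 and 44.1. KCNMA1, the large-conductance calcium activated channel, had 704 and 651 against 271 to 631 (0.66 ± 0.21, adjusted p = 0.028), but lost its call after centring. By family, the inward rectifiers had 6 higher and 1 lower (5 and 1 centred), the two-pore-domain channels 2 and 6 (2 and 8), the voltage-gated pores 7 and 11 (6 and 13), the accessory subunits 2 and 4 (2 and 4), and the calcium or sodium activated channels 3 and 1 (2 and 1).

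**Figure D3:**
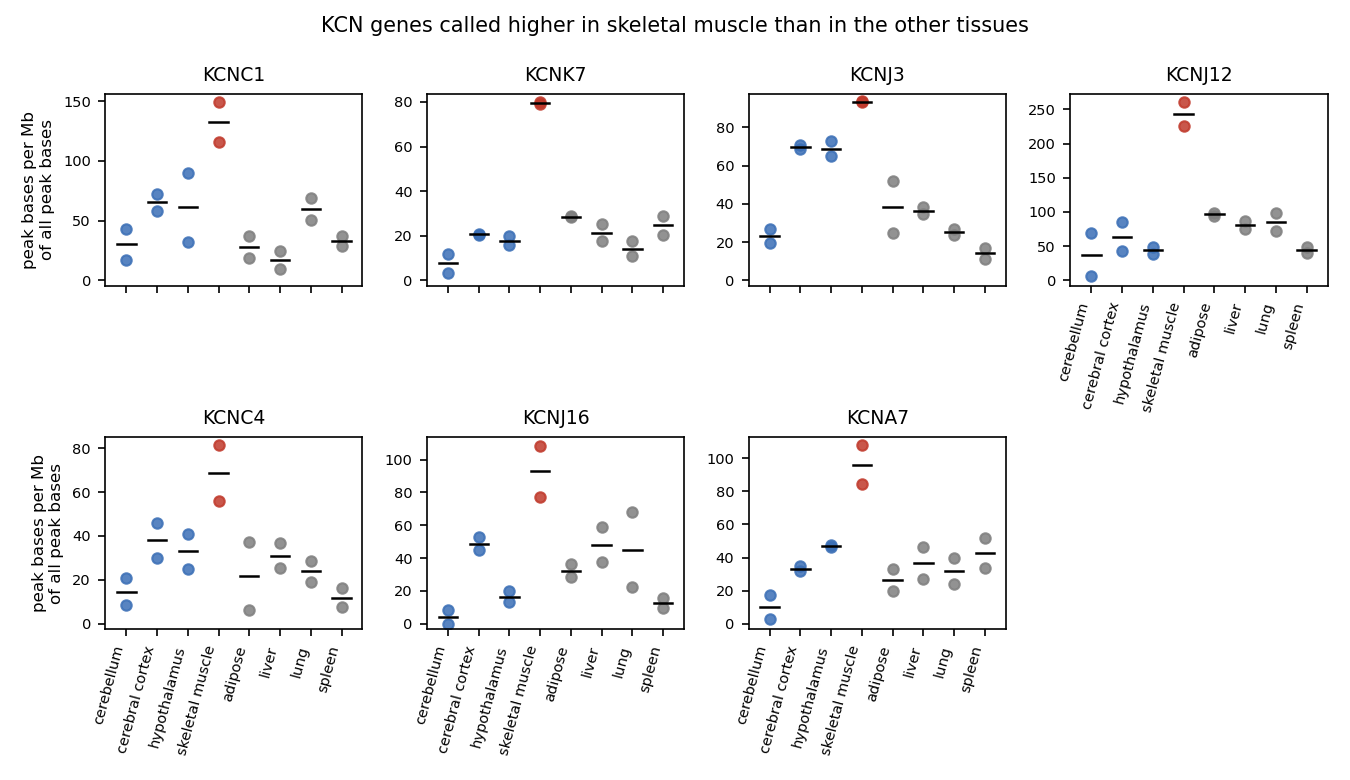
Peak density (linear axes from 0) of 7 of the KCN genes with the largest called excess in skeletal muscle, by tissue. Points are libraries and bars the mean of the 2 pigs. Both red points of skeletal muscle lie above every other point in all 7 genes, and KCNJ3 is next highest in cerebral cortex and hypothalamus.

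Set directly against skeletal muscle, brain was higher for 25 KCN genes (27.8%, against 13.8% of all genes) and lower for 32 (35.6%, against 43.6%), and after centring for 40 (24.3% of all genes) and 14 (16.6%). With 1 mean for each of the 3 groups, 21 were higher (9.64% of all genes) and 19 lower (27.1%). Every brain library lay above both muscle libraries for 21 KCN genes (23.3%, against 10.2%), and below both for 29 (32.2%, against 38.6%). This contrast reuses the brain and muscle libraries above. The largest differences were those of KCNB2 (4.42 ± 0.18, adjusted p = 8.5e-09), KCNH8 (4.41 ± 0.40, adjusted p = 4.1e-06), KCNK2 (4.06 ± 0.35, adjusted p = 2.6e-06) and KCNIP4 (3.72 ± 0.36, adjusted p = 6.3e-06). KCNH5, KCNMB2, KCNH1 and KCNK10 followed between 2.45 and 3.46. In the other direction KCNJ12 (-2.46 ± 0.49, adjusted p = 0.0012), KCNJ16, KCNK7, KCNA7, KCNE2 and KCNJ2 ranged from -2.46 to -1.60, and each remained called after centring. The KCNJ11 difference was -1.57 ± 0.32 (adjusted p = 0.0012), and its call was lost with peaks in place of bases.

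**Figure D4:**
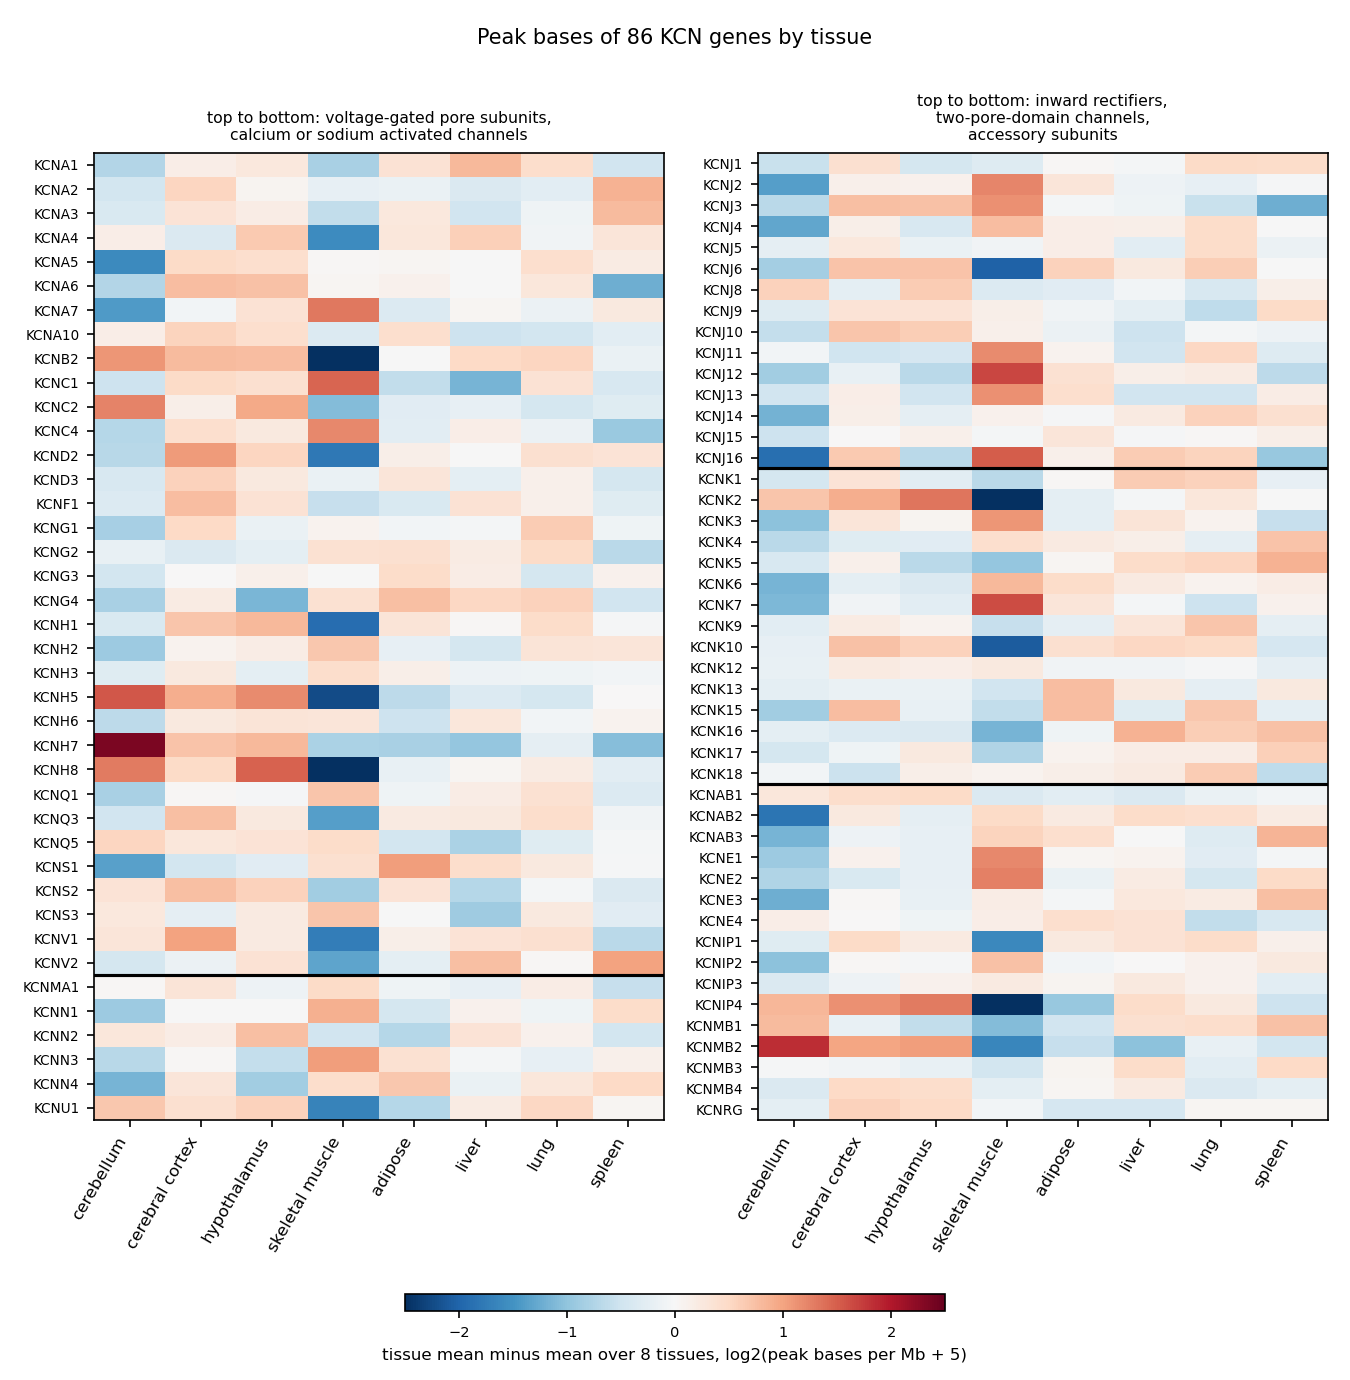
Mean density of 86 of the 90 KCN genes in the 8 tissues, each as its deviation from the gene's mean over tissues on the log2(density + 5) scale (colours end at ±2.5), with families separated by black lines. Skeletal muscle shows both the deepest blue cells, in KCNB2, KCNK2, KCNH8 and KCNIP4, and red cells in KCNJ12, KCNJ16 and KCNK7, and the cerebellum cell of KCNH7 is the deepest red.

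Cerebellum had the longest lists of the brain, and the density of most genes was lower there than in cerebral cortex and hypothalamus. Higher density was called for 2 KCN genes (2.22%, against 5.9% of all genes) and lower for 29 (32.2%, against 42.2%), and after centring for 10 (12%) and 6 (5.29%). Both cerebellum libraries lay above the other 4 brain libraries for 5 KCN genes (5.56%, against 7.49%) and below them for 37 (41.1%, against 48.8%). KCNH7 was higher as measured and after centring (1.56 ± 0.28, adjusted p = 0.0018). KCNMB1, the beta subunit of smooth muscle, had 22.5 and 29.4 in cerebellum and 6.56 to 11.6 in the other brain tissues (1.18 ± 0.45, adjusted p = 0.043). It lies inside KCNIP1, and its call was lost under 18 alternatives. Of the named genes with lower density, KCNA5, a channel of atrial muscle, had 0 and 3.55 in cerebellum against 21.4 to 24.8 (-2.10 ± 0.44, adjusted p = 0.0037). KCNJ16 had 0 and 8.52 against 12.9 to 52.9 (-2.03 ± 0.43, adjusted p = 0.0037), and KCNAB2 had 11.7 and 23.8 against 44.3 to 101 (-1.85 ± 0.29, adjusted p = 0.00094). KCNA7, KCNJ6, KCND2 and KCNJ2 had differences between -1.76 and -1.50, and of these 4 KCND2 lost its call after centring. Without the cerebellum library of P348, whose list was the longest of all, fewer KCN genes were called in either direction. The share of all genes called in that fit is not given here, but their median log2 difference was -0.46, against -0.68 with that library.

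The genes most limited to a tissue were named by the share of the summed tissue means that fell in the top tissue, where an even spread gives 12.5%. Both libraries of the top tissue lay above all 14 others, with a mean of at least 10, in 34 KCN genes (37.8%, against 35.9% of all genes). The top tissue was skeletal muscle for 21 of them (23.3%, against 17.9%), spleen for 4 (4.44%, against 8.34%), cerebellum for 3 (3.33%, against 3.76%), and cerebral cortex (1.22% of all genes), hypothalamus (0.497%) and adipose (2.59%) for 2 each. It was liver for 0 KCN genes (1.12% of all genes) and lung for 0 (0.401%). Among these 34 genes, KCNH7 had the highest share, with 45.9% in cerebellum, and KCNMB2 had 34.7% there. KCNJ13, an inward rectifier outside this set, had 50.9% in skeletal muscle, but at densities of only 16.3 and 4.43, and 1 library each of adipose and spleen lay above the lower of these. Others were highest in skeletal muscle, with KCNK7 at 37.1%, KCNJ12 at 34.9%, KCNE2 at 32.1%, KCNC1 at 31.0%, KCNJ16 at 30.9% and KCNA7 at 29.7%. With 45.9% as the highest share among the 34 genes, more of the summed density lay outside the top tissue than in it for each of them.

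Gene length ran with these differences. The KCN genes were longer than genes in general, with a median of 35350.5 bp against 20736 bp, and a median of 71.1% of their peak bases lay more than 2 kb from any coding TSS, against 59.6%. Of the 26 KCN genes over 100 kb, 12 were higher in brain than in the other tissues (46.2%, against 18% of all genes of that length) and 3 were lower (11.5%, against 27.8%). In skeletal muscle, 13 of the 26 were lower (50%, against 27.8%) and 6 were higher (23.1%, against 25.4%). Of the 35 KCN genes under 20 kb, 3 were higher in brain (8.57%, against 4.51%) and 12 lower (34.3%, against 37.2%). After centring, brain was higher for 15 of the 26 longest genes (57.7%, against 33.3%) and lower for 0 (against 5.67%), and for 6 of the 35 shortest (17.1%, against 11.4%) and 1 (2.86%, against 6.65%). Of the 26 longest, 14 were then lower in skeletal muscle (53.8%, against 33.3%) and 4 higher (15.4%, against 20.2%). The part of gene length in the differences was not tested beyond this split.

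**Figure D5:**
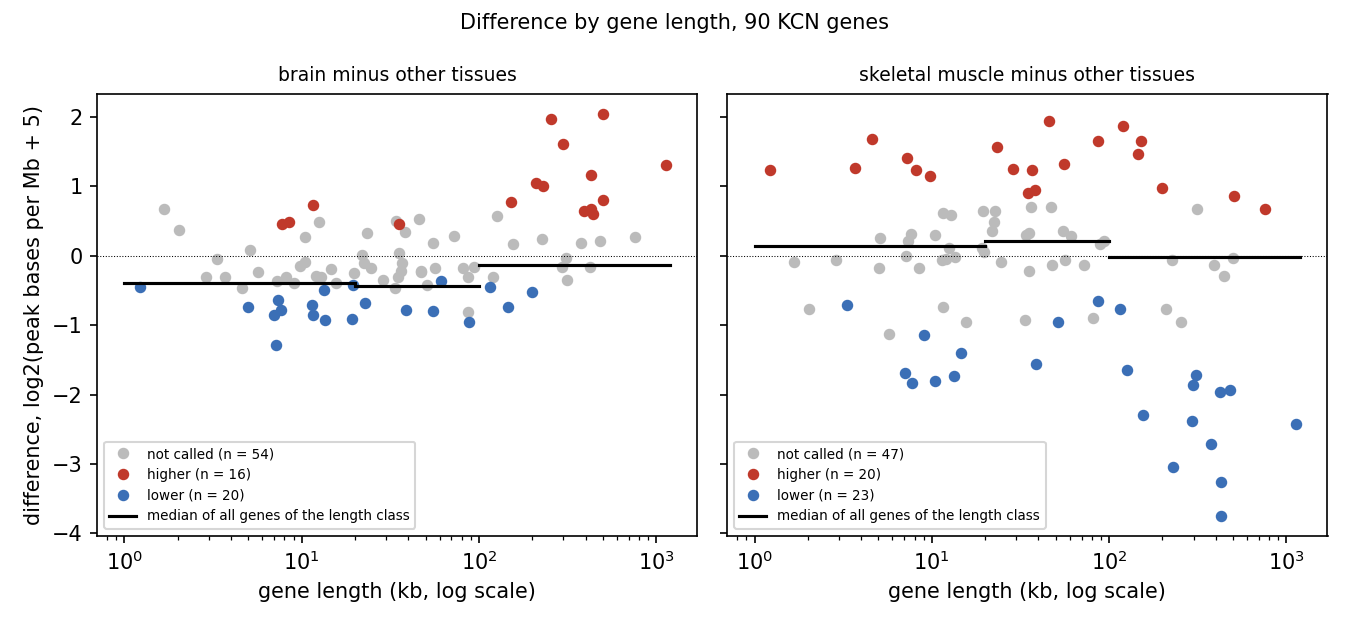
Log2 difference in peak density of the 90 KCN genes against gene length (log axis), for brain minus other tissues and for skeletal muscle minus other tissues. Points are genes, coloured by call, and black bars are the medians of all tested genes of the same length class. Above 100 kb most called genes are higher in brain (12 of 15) and lower in skeletal muscle (13 of 19).

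Single regions within the KCN windows showed where the bases lay. After peaks of all libraries were merged, 2224 regions in these windows were open in at least 2 libraries. Of them 82 were open in both cerebellum libraries and nowhere else (3.69%, against 5.15% of all regions), 66 in cerebral cortex (2.97%, against 2.183%), 6 in hypothalamus (0.270%, against 0.111%), 62 in skeletal muscle (2.79%, against 2.93%), 25 in lung (1.12%, against 1.16%), 19 in liver (0.854%, against 1.15%), 11 in spleen (0.495%, against 1.07%) and 7 in adipose (0.315%, against 0.576%). The window of KCNH7 held 27 of the 82 cerebellum regions, and KCNIP4 followed with 7. KCNN3, a small-conductance calcium activated channel with 277 and 337 peak bases per Mb in skeletal muscle against 122 to 211 in the other tissues, held 8 of the muscle regions, and KCNMA1 and KCNJ16 held 5 each.

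Regions open in 1 tissue were ranked by the fold enrichment over local background, as the authors' caller gave it, in the weaker of the 2 libraries, and the first 3 were all in skeletal muscle. The strongest lay at chr3:119977552-119977904 on an untranslated exon of KCNS3, a silent subunit, with a fold of 13.7 to 14.7 over the 2 pigs. It was 0 bp from the nearest coding TSS, which is one of KCNS3. The next lay in an intron of KCNMA1 at chr14:79710060-79710685 (10.95 to 12.3), 10180 bp from the nearest coding TSS. The third lay in an intron of KCNJ16 at chr12:10440734-10441312 (8.54 to 9.30), 7310 bp from the nearest TSS. For the last 2, the 300 bases around the middle of the strongest peak are shown on the plus strand, because they are the muscle elements with the highest fold outside exons. Capitals mark CTATAAATAG in KCNJ16, a match to the MEF2 motif that also contains TATAAA, and the KCNMA1 bases held none of the motifs. Of all regions open in at least 2 libraries, 3.83% held the MEF2 motif in the 300 bases around the middle of their strongest peak, and of those in KCN windows 3.55%.
KCNMA1 intron, chr14:79710223-79710522: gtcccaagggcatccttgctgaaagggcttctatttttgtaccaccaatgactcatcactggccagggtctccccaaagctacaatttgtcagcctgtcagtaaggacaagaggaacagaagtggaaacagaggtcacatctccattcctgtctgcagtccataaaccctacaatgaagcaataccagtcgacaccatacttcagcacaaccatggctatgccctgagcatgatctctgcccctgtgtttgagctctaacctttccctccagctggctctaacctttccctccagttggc
KCNJ16 intron, chr12:10440873-10441172: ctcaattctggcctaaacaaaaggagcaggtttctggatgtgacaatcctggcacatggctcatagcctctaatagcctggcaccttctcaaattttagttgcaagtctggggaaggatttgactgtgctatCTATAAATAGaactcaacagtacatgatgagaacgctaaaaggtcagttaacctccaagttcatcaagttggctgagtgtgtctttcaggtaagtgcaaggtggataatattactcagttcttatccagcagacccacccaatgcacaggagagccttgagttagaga

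Regions open in all 6 brain libraries and in no other were rare, with 4 in KCN windows (0.180%, against 0.148% of all regions), in KCNA2, KCNH8, KCNIP4 and KCNN2. The 3 in introns far from a coding TSS were in KCNIP4 (chr8:15837195-15838377, 101445 bp away, fold 3.38 to 4.89), KCNN2, a small-conductance calcium activated channel of neurons (chr2:118536996-118538725, 97661 bp away, fold 2.58 to 4.81), and KCNH8 (chr13:6438027-6439339, 333645 bp away, fold 2.57 to 3.36). Their folds were lower than those of the muscle regions. Those of KCNIP4 and KCNH8 are shown on the plus strand, as 300 bases chosen in the same way, because all brain tissues shared them at 2 genes that were low in skeletal muscle. Neither held any of the motifs searched, and 26.3% of the KCNH8 bases are repeats in the reference.
KCNIP4 intron, chr8:15838078-15838377: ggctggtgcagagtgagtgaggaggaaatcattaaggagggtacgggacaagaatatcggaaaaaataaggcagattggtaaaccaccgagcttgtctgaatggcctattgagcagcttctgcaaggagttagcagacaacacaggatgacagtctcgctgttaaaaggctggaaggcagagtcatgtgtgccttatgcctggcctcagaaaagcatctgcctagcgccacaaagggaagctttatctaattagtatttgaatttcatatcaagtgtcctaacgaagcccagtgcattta
KCNH8 intron, chr13:6438549-6438848: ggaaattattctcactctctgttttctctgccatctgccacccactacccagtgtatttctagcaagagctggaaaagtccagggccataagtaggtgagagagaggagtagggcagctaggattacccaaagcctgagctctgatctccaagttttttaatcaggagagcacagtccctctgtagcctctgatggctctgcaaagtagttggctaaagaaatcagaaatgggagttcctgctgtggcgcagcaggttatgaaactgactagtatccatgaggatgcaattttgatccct

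Partner genes whose products bind or modulate these channels were read in the same way, and 22 of 24 were found and tested. In brain against the other tissues, 6 were higher (27.3%, against 6.04% of all genes) and 4 lower (18.2%, against 38.2%), and after centring 13 were higher (59.1%, against 14.2%) and 2 lower (9.09%, against 7.71%). The higher genes included DPP10, an auxiliary subunit of A-type channels (1.47 ± 0.16, adjusted p = 0.00010), and CNTNAP2, which anchors axonal channels (0.92 ± 0.14, adjusted p = 0.00059). In skeletal muscle, 8 were higher (36.4%, against 18.6%) and 6 lower (27.3%, against 13.8%), and after centring 4 were higher (18.2%, against 13.8%) and 6 lower (27.3%, against 18.2%). DPP10 (-3.90 ± 0.23, adjusted p = 1.7e-07), DPP6 (-3.29 ± 0.38, adjusted p = 4.2e-05) and CNTNAP2 (-2.76 ± 0.21, adjusted p = 1.1e-06) were the lowest. ABCC9, the sulfonylurea receptor of muscle ATP-sensitive channels, was higher in skeletal muscle (1.35 ± 0.33, adjusted p = 0.0068), as was ABCC8, the receptor known from islet cells and neurons (1.02 ± 0.32, adjusted p = 0.026). A window holds more than its own gene in 40 of the 90 KCN genes, where another protein-coding gene lies at least in part within it, so a density there need not belong to the KCN gene alone.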

How the data were processed

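ATAC-seq peak lists of 16 pig libraries (8 tissues, 2 pigs) were used, and the 15 cattle lists were not used here. Per the labels, the submitters' processing notes name Trim Galore 0.4.5, BWA 0.7.17, SAMtools 1.10 and Picard 2.18.17, and the pig build susScr11. The authors called broad peaks with MACS2, and the deposited lists used here are 1 per library, whereas the study's regions of accessible chromatin were called on the combined reads of both animals. Whether read ends were shifted for the transposase is not given in the sources used here. The deposited columns used were peak coordinates, the fold enrichment (a ratio to local background) and the −log10 q-value. Lists give no read counts, so depth was not adjusted for, and a deeper library can have more and weaker peaks.

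Genes, TSSs and sequence came from RefSeq's Sscrofa11.1 annotation, whereas the study used another. Of 270 sequence names in the lists, 6 were not in the reference, and 0 peaks ran past a sequence end. Peak density (peak bases in the gene plus 10 kb per Mb of all peak bases) was tested as log2(density + 5) with limma 3.58.1 in R 4.3.3, with a variance trend, 1 mean per tissue over all 16 libraries, and genes with peak bases in at least 2 libraries. P-values were Benjamini-Hochberg adjusted over these 18340 genes, and the threshold was 0.05. Fold changes of low densities are understated on this scale. The pairing of tissues by animal comes from the labels. Deviations of the 2 pigs correlated between tissues at -0.22 to 0.16 (median 0.0031, 28 pairs of tissues), and the block is given in the closing section. The statistics were tested on simulated data.

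The KCN genes, lists, families, motifs and tests were chosen with earlier results of these data known. Named genes were, per comparison, up to 8 called KCN genes with the largest difference in each direction, the 10 most limited to 1 tissue, those with a TSS open in 1 tissue, and a list of genes known for a tissue. Some of the genes this rule names are not reported here, but are in the counts. KCNJ9, KCNG4, KCNAB1 and KCNN3 and the genes holding a motif were singled out after their values were seen. Python 3.11.15, numpy 2.4.6, pandas 2.3.3 and pysam 0.24.0 were used.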

Additional observations from a re-analysis of the deposited data

Results flagged for a closer look

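A library stood apart from its group in 5 of 98 sets of libraries looked at, 49 of 6 brain libraries and 49 of 8 libraries of the other tissues, by the gap to the nearest library as a share of the whole range (Dixon's 95% limits), and chance alone flags about 1 in 20. In the other tissues, KCNH5 had a density of 86.3 in the spleen of P350 where the next library had 42.3, and this library accounts for the overlap with brain given above. KCNK6 had 66.8 in the adipose of P350 (next 42.0), KCNS1 had 44.9 in the same library (next 26.6), and KCNQ3 had 335 in the lung of P350 (next 236). In brain, KCNQ1 had 49.3 in the cerebellum of P348 where the next lowest had 159.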

How the results depend on the processing

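Counts of KCN genes are given as higher, then lower, and the cause of each move was not tested. Apart from the centred fit and that with 3 groups, the shares of all genes called are not given. The counts therefore describe the settings and are not a result about KCN genes. In brain minus other tissues (16 and 20) the lower count moved to 13 at a q-value limit of 0.01, 7 with 2 kb flanks, 10 with distal bases only, 12 with peaks in place of bases, 6 with bases not scaled, 2 centred, 5 with 3 groups and 0 without cerebellum, and the higher count to 29 centred and 10 with 3 groups. Leaving out a library gave 13 to 17 higher and 8 to 27 lower, lowest without cerebellum P348. In skeletal muscle minus other tissues (20 and 23) leaving out a library gave 7 to 23 and 13 to 24, lowest without skeletal muscle P350. In brain minus skeletal muscle (25 and 32) the higher count moved to 40 centred, and the lower to 20 with bases not scaled, 14 centred, 19 with 3 groups and 19 without cerebellum. Leaving out a library gave 18 to 27 and 16 to 33. In cerebellum minus other brain (2 and 29) the higher count moved to 4 at a q-value limit of 0.01 and with lists of equal length, 1 with 2 kb flanks, distal bases only, a pseudocount of 1 or no filter, 6 with bases not scaled and 10 centred. The lower count moved to 49 with 50 kb flanks, 13 with distal bases only, 4 with bases not scaled and 6 centred. Leaving out a library gave 1 to 3 and 5 to 34.

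With the animal as a replicate block, 16 and 17 KCN genes were called in brain minus other tissues, 20 and 23 in skeletal muscle, 24 and 30 in brain minus skeletal muscle and 2 and 31 in cerebellum, all within 1.5 times the unpaired counts. Of the calls of named genes, 106 kept their direction and call under this block and 4 kept only their direction. Among these calls, 1 changed sign under an alternative, KCNIP2 in brain minus other tissues (0.0026 centred). The brain without cerebellum was added after the data were seen.

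The mean number of KCN genes with a TSS peak moved with the limits. It was 63.5, 63.0 and 61.3 in brain, skeletal muscle and other tissues at 500 bp, 62.8, 65.5 and 54.0 at a q-value limit of 0.01, and 63.2, 67.0 and 63.5 with lists of equal length, and leaving out a library gave 73.0 to 76.4, 69.0 to 70.0 and 70.1 to 72.7. The number with a TSS open in 1 tissue was 3 at 500 bp, 2 at a q-value limit of 0.01 and 2 with a peak in at least 1 library of the tissue.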

Other observations

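Another 4 genes with a KCN symbol lay outside chromosomes 1 to 18, and their densities are given as the mean and SD of the 2 pigs without a test. KCNT2, a sodium activated channel on an unplaced sequence, had 34.9 ± 16.2 in skeletal muscle and 111 ± 25.4 to 234 ± 2.03 in the other 7 tissues. KCNT1, its relative, also on an unplaced sequence, had 103 ± 42.7 in skeletal muscle, 71.0 ± 33.6 in lung, 65.3 ± 11.2 in cerebral cortex and 23.8 ± 19.9 to 47.3 ± 26.6 in the other 5 tissues. On chromosome X, KCND1 had 27.5 ± 0.325 in skeletal muscle and 8.72 ± 6.42 in cerebellum, and KCNE5 had 12.9 ± 9.52 in hypothalamus and no peak in spleen.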
